A study of Homo sapiens with 2 samples.

Results

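The genes described here encode the machinery of RNA polymerase I and RNA polymerase III, that is, the subunits of both enzymes and the factors that bring them to their promoters. They were chosen by symbol: every gene whose symbol begins with POLR1, POLR3, GTF3C or GTF3A, together with CD3EAP, ZNRD1, TWISTNB, TAF1A to TAF1D, UBTF, RRN3, BRF1, BRF2, BDP1, MAF1 and CRCP. After 10 antisense and pseudogene symbols were left out, 36 genes remained of the 60619 in the deposited table, and all 36 lay among the 13304 genes above the filter on low counts.

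The measurements are gene expression levels, read by sequencing RNA of HBEC-3KT cells, a line of human bronchial epithelial cells immortalised with CDK4 and telomerase. There were 2 libraries. The CBS cells carried a lentivirus (pLenti6) with human CBS, the gene of cystathionine beta-synthase, and the control cells carried the same vector without an insert. Virus was left on the cells of both groups for 4 to 8 hours, blasticidin (10 µg/mL) then removed cells without it, and culture on gelatin lasted 4 to 5 days. The vector thus drove CBS on top of the cells' own gene, and the labels do not say whether a library came from a clone or a pool. With 1 library per group, no test between the conditions was possible, and the spread between cultures is unknown.

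RNA polymerase I transcribes the ribosomal RNA genes in the nucleolus, and RNA polymerase III makes transfer RNA, the smallest free ribosomal RNA and several other short RNAs. Both enzymes use a large core of their own plus small subunits that they share. Their output sets how many ribosomes and tRNAs a cell can make, and both are known to rise with growth signals and to be held down when nutrients are short.

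The CBS library held 20785957 estimated counts, against 20433062 in the empty-vector library. CBS itself had 3669 counts in CBS cells, against 280 in empty-vector cells, 12.2-fold higher in the library labelled as overexpressing it, although its reads are split with the near-identical copy CBSL. All 7 markers of basal airway cells were present, with a summed level in CPM, counts scaled to library size, of 6792 in CBS cells, against 10659 in empty-vector cells. TP63, the basal lineage factor, was at 241 CPM in CBS cells, against 248 CPM in empty-vector cells, and its interval held a ratio of 1 (log2 fold -0.04, -0.10 to 0.01). The intervals of the other 6 basal markers, KRT5 among them, lay below 1, and the median log2 fold of the 7 was -0.72. Among markers of other cell types, PTPRC and CD3E (leukocytes), DCN and LUM (fibroblasts), KDR (endothelium) and FOXJ1 (ciliated cells) had 0 counts in both libraries. The summed CPM were 39.6 in CBS cells, against 123.6 in empty-vector cells, for 5 leukocyte markers, mostly CD68. They were 6.19 against 13.6 for 5 fibroblast markers, mostly COL1A1, 4.17 against 0.753 for 4 endothelial markers, mostly CDH5, and 4.78 against 2.16 for 7 secretory and ciliated markers, mostly DNAH5. The keratins KRT14, KRT15 and KRT17 were lower with CBS, with 918 counts of KRT14 in CBS cells, against 3831 in empty-vector cells. The part of these marker differences in the results below was not tested. In RNA from a whole culture, fewer cells of one state and less RNA per cell cannot be told apart.

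Most of the polymerase I and III genes were higher in the CBS library, by modest amounts. Their median log2 fold was 0.31, while the median of all genes above the filter was 0.00. Folds here are CBS over empty vector after scaling by trimmed mean of M-values (TMM), with a prior count of 5 in the log2 folds, on which every fold threshold was applied. Each is followed by an exact 95% interval of the ratio of the 2 counts, which covers counting error only. Of the 36 genes, 26 had an interval above a ratio of 1, for 3 (POLR1D, TAF1C and POLR3GL) it lay below, and for 7 it included 1. Over all 13304 genes the interval lay above 1 for 31.6% and below 1 for 31.1%. All 36 genes had at least 100 counts in 1 library, and among the 11040 genes of the table that did, the interval lay above 1 for 36.0% and below 1 for 32.0%. At least 1.5-fold higher, with an interval above 1, were 7 of the 36 genes, against 7.02% of all genes and 6.61% of those with at least 100 counts. None was 1.5-fold lower, against 12.9% and 10.3%, and POLR3GL at -0.58 lay just short of that threshold. It passed the threshold at -0.59 with a prior count of 1 and at -0.62 after removal of the trend on length and GC content. At the stricter threshold of 2-fold, only CD3EAP was higher, against 1.41% of all genes and 1.04% of those with at least 100 counts, and none was lower, against 5.28% and 3.97%. These counts compare 2 libraries, not the conditions.

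**Figure D1:**
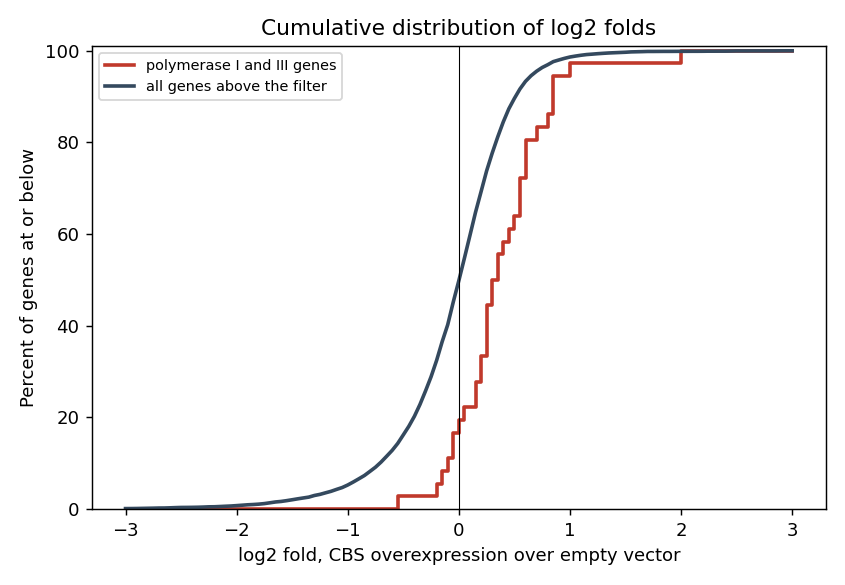
Percent of genes (vertical axis) with a log2 fold, CBS over empty vector, at or below the value on the horizontal axis, for the 36 polymerase I and III genes (red) and all 13304 genes above the filter (dark). The red curve lies to the right, with 19.4% of the 36 genes at or below 0, against 49.8% of all genes.

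The range ran between CD3EAP at the top and POLR3GL at the bottom, with POLR3K the second highest. Their promoter sequences are shown because these genes mark the ends of that range. They are RefSeq windows on GRCh38.p14, 250 bases before to 50 bases after the RefSeq gene start, which can differ from the start of the counted gene. Capitals mark matches to the E-box CACGTG, the letters bound by MYC and other basic helix-loop-helix factors, and to CCGGAA, the core of ETS sites, on either strand. The CD3EAP window is chr19:45406394-45406693 on the plus strand, that of POLR3K is chr16:53559-53858 on the minus strand, and that of POLR3GL is chr1:145964440-145964739 on the plus strand.
CD3EAP: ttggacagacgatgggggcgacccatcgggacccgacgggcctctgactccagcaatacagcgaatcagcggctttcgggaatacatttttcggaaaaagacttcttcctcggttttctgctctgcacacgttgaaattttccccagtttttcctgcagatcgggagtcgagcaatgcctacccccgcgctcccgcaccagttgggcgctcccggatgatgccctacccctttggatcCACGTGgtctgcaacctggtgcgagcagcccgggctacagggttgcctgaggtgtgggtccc
POLR3K: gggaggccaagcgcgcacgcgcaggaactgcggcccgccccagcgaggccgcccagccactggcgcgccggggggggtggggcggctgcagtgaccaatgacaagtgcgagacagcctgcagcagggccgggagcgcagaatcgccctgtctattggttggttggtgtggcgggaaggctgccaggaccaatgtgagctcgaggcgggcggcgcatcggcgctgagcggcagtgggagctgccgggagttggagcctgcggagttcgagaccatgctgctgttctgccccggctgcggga
POLR3GL: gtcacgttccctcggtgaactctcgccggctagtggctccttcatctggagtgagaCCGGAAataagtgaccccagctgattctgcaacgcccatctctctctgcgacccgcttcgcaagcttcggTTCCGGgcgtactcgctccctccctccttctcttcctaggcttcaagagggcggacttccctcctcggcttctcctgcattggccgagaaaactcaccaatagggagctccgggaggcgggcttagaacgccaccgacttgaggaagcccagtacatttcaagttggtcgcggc

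The CD3EAP window holds 1 E-box, which begins 12 bases before the RefSeq start, and no ETS core. The whole CD3EAP window lies inside the span of the counted gene, 45406209 to 45410766, downstream of where that span begins. The POLR3GL window holds 2 ETS cores and no E-box, and the POLR3K window holds neither. RefSeq windows were matched for 29 of the 36 genes, some with more than 1 start. An E-box was found for 7 of the 29 genes (24.1%), against 8.77% of the 27305 genes with a window, and against 12.6% of the 9836 of those that were above the filter. The 7 were CD3EAP, POLR3A, POLR3C, POLR3E, GTF3C2, GTF3C4 and GTF3C6. An ETS core was found for 17 of the 29 (58.6%), against 20.1% of all genes with a window and 36.2% of those above the filter. The longer palindromic motif of NRF1, searched as well, was found for POLR3B, GTF3A and GTF3C1 (10.3%), against 1.52% of all genes with a window and 2.73% of those above the filter. A match in these letters is a description of the window and does not show binding.

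The 8 specific and shared subunits of RNA polymerase I in the table had the highest median of the groups, at 0.62, with 7 intervals above a ratio of 1 and 1 below. CD3EAP, now named POLR1G (chromosome 19, 45406209 to 45410766), encodes a subunit that pairs with the product of POLR1E in a module particular to polymerase I. It had 868 counts in CBS cells, against 202 in empty-vector cells. In TPM, which are scaled for transcript length and allow comparison between genes of different length, its level was 24.8 TPM in CBS cells, against 4.53 TPM in empty-vector cells. The log2 fold was 1.98 (1.78 to 2.23), rank 24 of 13304 from the top. The ratio of the scaled counts without the prior count was 4.01. No other of the 36 genes reached 2-fold. Without CD3EAP the median of the polymerase I subunits was 0.56.

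CD3EAP lies across the opposite strand of ERCC1, a DNA repair gene, and the files do not say whether counting used strand. In GENCODE 29, 43.5% of the exonic bases of CD3EAP also lie in exons of ERCC1. ERCC1 had 3242 counts in CBS cells, against 3051 in empty-vector cells, which gives a log2 fold of -0.01 (-0.08 to 0.06). The other overlapping gene, PPP1R13L, shares 1.58% of the exonic bases of CD3EAP and was lower, at -0.80 (-0.87 to -0.74). Neither partner was higher in the CBS library beyond counting error. How many reads the partners lend to CD3EAP was not tested.

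POLR1E, the partner of CD3EAP in that module (chromosome 9, 37485935 to 37503697), had 849 counts in CBS cells, against 452 in empty-vector cells. Its level was 32.1 TPM in CBS cells, against 16.9 TPM in empty-vector cells, and the log2 fold of its counts was 0.80 (0.64 to 0.98). Both genes of the module were thus higher, CD3EAP by more. The active site is built by the products of POLR1A and POLR1B. POLR1B (chromosome 2, 112541915 to 112577150), the second largest subunit, had 1297 counts in CBS cells, against 673 in empty-vector cells. Its level was 23.2 TPM in CBS cells, against 11.9 TPM in empty-vector cells, and the log2 fold of its counts was 0.84 (0.71 to 0.98). POLR1A (chromosome 2, 86020216 to 86106155), the largest subunit, had 2017 counts in CBS cells, against 1177 in empty-vector cells, and a log2 fold of 0.68 (0.57 to 0.78). These 4 genes were the polymerase I genes at least 1.5-fold higher.

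TWISTNB, now POLR1F (chromosome 7, 19695462 to 19709087), belongs to the stalk of polymerase I that docks with RRN3. It had 1052 counts in CBS cells, against 665 in empty-vector cells, which gives a log2 fold of 0.56 (0.42 to 0.71). In the authors' TPM it was 18.8 with CBS and 15.4 with the empty vector, and the difference on log2(TPM + 1) was smaller, 0.27. ZNRD1, now POLR1H, a small subunit that takes part in RNA cleavage, had 226 counts in CBS cells, against 158 in empty-vector cells, which gives a log2 fold of 0.41 (0.12 to 0.72). Its antisense partner ZNRD1-AS1, which shares 24.5% of its exonic bases, had 58 counts in CBS cells, against 89 in empty-vector cells.

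POLR1C and POLR1D encode the pair of subunits that polymerase I shares with polymerase III, and they differed in direction. POLR1C had 503 counts in CBS cells, against 331 in empty-vector cells, which gives a log2 fold of 0.50 (0.30 to 0.71). POLR1D (chromosome 13, 27620742 to 27667415) had 1863 counts in CBS cells, against 1959 in empty-vector cells, which gives a log2 fold of -0.17 (-0.26 to -0.08). POLR1D was also the most abundant of the 8, with 125 TPM in CBS cells, against 132 TPM in empty-vector cells. The lowest of the 8 was POLR1A at 13.7 TPM in CBS cells, against CD3EAP at 4.53 TPM in empty-vector cells.

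**Figure D2:**
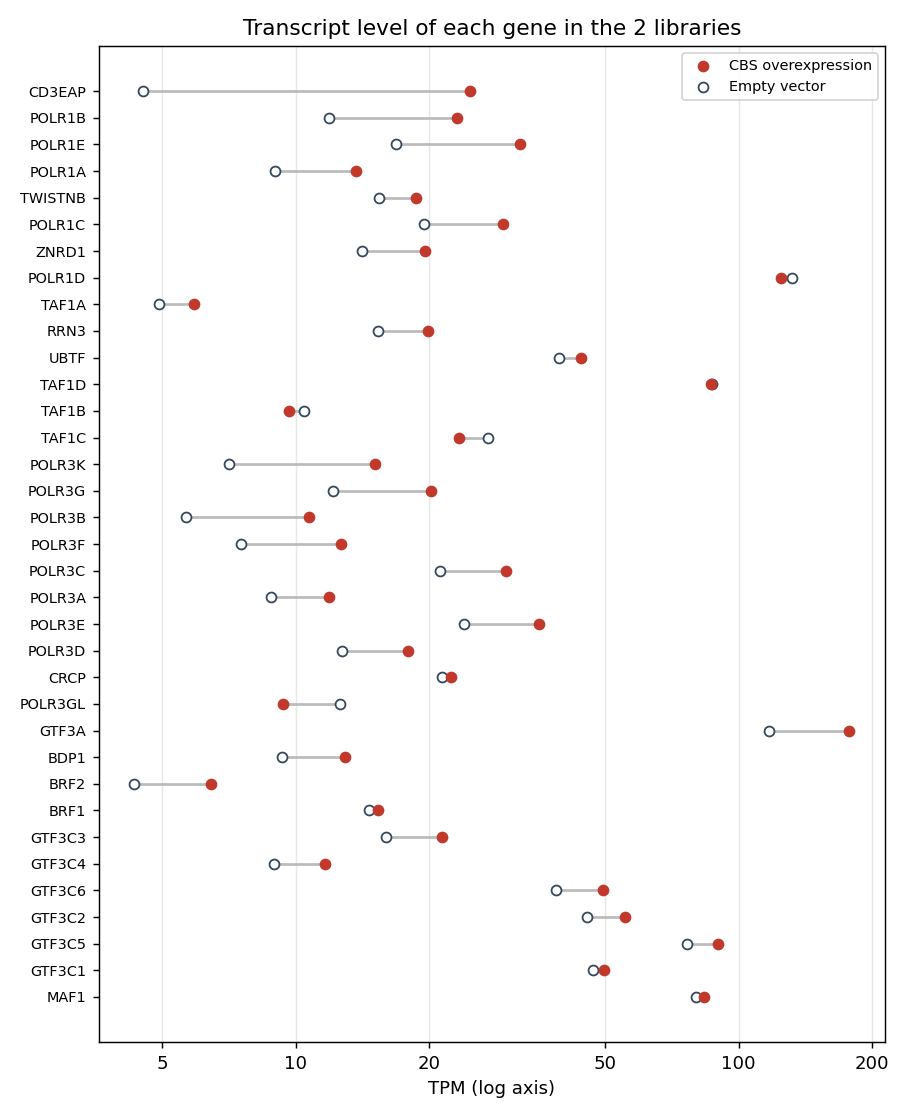
Level of the genes reported singly as TPM (horizontal log axis) in the CBS library (filled red) and the empty-vector library (open), joined by a grey line, with no replicates. Genes run by role: polymerase I subunits, polymerase I factors, polymerase III subunits, TFIIIA, TFIIIB, TFIIIC and MAF1. GTF3A is the highest point of the CBS library at 177.6 TPM, POLR1D that of the empty-vector library at 132 TPM, and CD3EAP has the widest gap.

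The 6 factors that start polymerase I had a median log2 fold of 0.07, with 3 intervals above a ratio of 1, 1 below and 2 that held it, and none was 1.5-fold higher. UBTF, the upstream binding factor that coats active ribosomal DNA (chromosome 17, 44205033 to 44221626), had 2104 counts in CBS cells, against 1750 in empty-vector cells. Its log2 fold was 0.17 (0.08 to 0.26). RRN3, also called TIF-IA, which links the enzyme to its promoter and carries growth signals to it (chromosome 16, 15060022 to 15094317), had 1076 counts in CBS cells, against 821 in empty-vector cells. Its log2 fold was 0.29 (0.16 to 0.42), and RRN3 has pseudogene copies that could take some of its reads.

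TAF1A, TAF1B, TAF1C and TAF1D encode the parts of SL1 (selectivity factor of polymerase I) that bind TBP, the TATA-binding protein. TAF1A had 137 counts in CBS cells, against 88 in empty-vector cells, which gives a log2 fold of 0.52 (0.14 to 0.94), the widest interval among the polymerase I genes. TAF1C had 993 counts in CBS cells, against 1070 in empty-vector cells, which gives a log2 fold of -0.20 (-0.33 to -0.08). That difference was 0.029 after removal of the trend on length and GC content. TAF1B at -0.14 and TAF1D at -0.03 had intervals that held a ratio of 1, with 285 counts in CBS cells, against 293 in empty-vector cells for TAF1B, and 1441 counts in CBS cells, against 1375 in empty-vector cells for TAF1D. The genes of SL1 therefore lay on both sides of a ratio of 1.

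The 11 subunits particular to RNA polymerase III had a median log2 fold of 0.37, with 8 intervals above a ratio of 1, 1 below and 2 that held it. POLR3K (chromosome 16, 46407 to 53628), a small subunit needed for RNA cleavage and termination, had 296 counts in CBS cells, against 140 in empty-vector cells. Its level was 15.2 TPM in CBS cells, against 7.08 TPM in empty-vector cells, and the log2 fold of its counts was 0.96 (0.69 to 1.28). It lay just under the 2-fold threshold, and it crossed it at 1.03 under plain library totals, where the median of all genes above the filter was 0.07. POLR3B (chromosome 12, 106357658 to 106510198), the second largest subunit, had 645 counts in CBS cells, against 349 in empty-vector cells. Its log2 fold was 0.78 (0.60 to 0.98). POLR3A (chromosome 10, 77969251 to 78029545), the largest subunit, which forms the active site with POLR3B, had 1132 counts in CBS cells, against 837 in empty-vector cells, and its log2 fold was lower than that of POLR3B, 0.34 (0.21 to 0.47). The intervals of these catalytic partners did not overlap.

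The paralogs POLR3G and POLR3GL encode alternative forms of the same subunit and went opposite ways. The POLR3G form is known from stem and tumour cells, and the POLR3GL form from differentiated tissues. POLR3G (chromosome 5, 90471748 to 90514553) had 789 counts in CBS cells, against 419 in empty-vector cells, which gives a log2 fold of 0.81 (0.64 to 0.99). POLR3GL (chromosome 1, 145964702 to 145978848) had 136 counts in CBS cells, against 192 in empty-vector cells, which gives a log2 fold of -0.58 (-0.92 to -0.27). It was the lowest of the 36 genes.

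In the authors' TPM, which account for length, POLR3G was at 20.2 with CBS and 12.2 with the empty vector, and POLR3GL at 9.36 with CBS and 12.6 with the empty vector. POLR3G thus made up 68.3% of the TPM of the pair with CBS and 49.1% with the empty vector. Of their summed counts its share was 85.3% with CBS (exact 95% binomial interval 82.8% to 87.5%) and 68.6% with the empty vector (64.7% to 72.2%). These intervals do not overlap, but they cover counting error only, not the spread between cultures. In TPM the 2 forms were near equal in the empty-vector library and POLR3G led in the CBS library. POLR3G overlaps MBLAC2 on the other strand over 6.47% of its exonic bases, and MBLAC2 had 409 counts in CBS cells, against 190 in empty-vector cells. POLR3GL overlaps no gene above the filter.

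POLR3C and POLR3F encode the partners of either form in a trimer that takes part in initiation. POLR3F had 407 counts in CBS cells, against 255 in empty-vector cells, which gives a log2 fold of 0.57 (0.35 to 0.81), and POLR3C was at 0.37 (0.21 to 0.54) with 721 counts in CBS cells, against 520 in empty-vector cells. All of the trimer except POLR3GL was therefore higher. CRCP, which encodes a subunit of the stalk, was at -0.08 (-0.21 to 0.06) with 933 counts in CBS cells, against 920 in empty-vector cells. POLR3D and POLR3E encode a pair that stabilises initiation. POLR3E was at 0.24 (0.10 to 0.39) with 890 counts in CBS cells, against 702 in empty-vector cells, and POLR3D at 0.13 (-0.03 to 0.30) with 674 counts in CBS cells, against 574 in empty-vector cells. On log2(TPM + 1) both differences were larger and lay above these intervals, 0.55 for POLR3E and 0.47 for POLR3D.

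**Figure D3:**
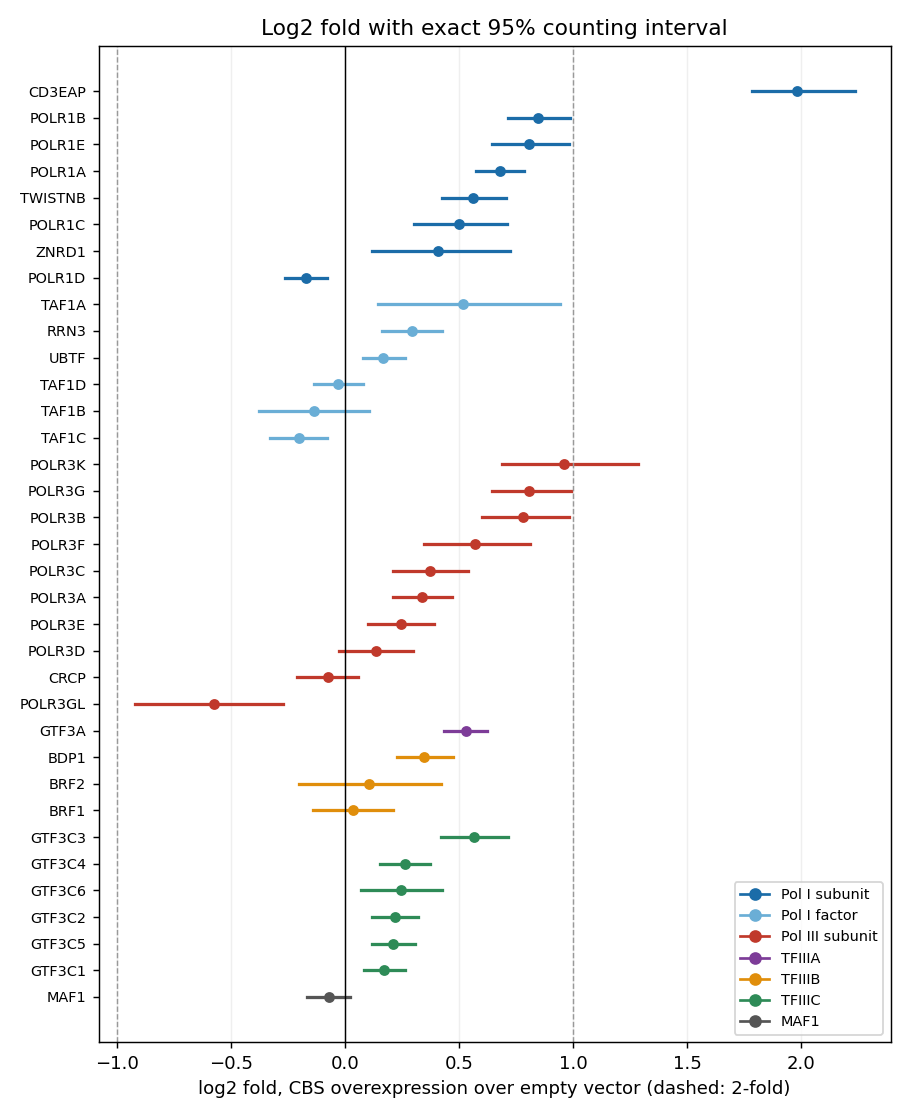
Log2 fold, CBS over empty vector (points), with the exact 95% counting interval (lines) for the genes reported singly, coloured by role; dashed lines mark 2-fold. The subunits of both polymerases spread between -0.58 and 1.98, and all 6 genes of TFIIIC lie between 0.17 and 0.56.

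Among the factors of polymerase III, GTF3A, BDP1 and the 6 genes of TFIIIC had intervals above a ratio of 1, and those of BRF1, BRF2 and MAF1 held it. GTF3A encodes TFIIIA, the zinc finger protein that recognises the gene of the polymerase III ribosomal RNA. GTF3A (chromosome 13, 27424544 to 27435823) had 2338 counts in CBS cells, against 1514 in empty-vector cells, which gives a log2 fold of 0.53 (0.43 to 0.62), and its 177.6 TPM in CBS cells, against 117.1 TPM in empty-vector cells, was the highest level of the 36 genes in the CBS library. TFIIIC binds the internal promoters of tRNA genes. All 6 of its genes had an interval above a ratio of 1, with a median of 0.23. Over all genes above the filter that share was 31.6%, and 36.0% among those with at least 100 counts. The median of the mean counts of the 6 was 1501.75, against 488 for all genes above the filter. Counting intervals narrow as counts rise, so small differences can exclude 1 here. GTF3C3 (chromosome 2, 196763032 to 196799725) was the furthest, with 994 counts in CBS cells, against 627 in empty-vector cells at a log2 fold of 0.56 (0.42 to 0.71). The other 5 (GTF3C1, GTF3C2, GTF3C4, GTF3C5 and GTF3C6) lay between 0.17 and 0.26, so none of the 6 reached 1.5-fold.

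TFIIIB is the factor that holds the polymerase at the start site, made of TBP, BDP1 and either BRF1 or BRF2. BDP1 (chromosome 5, 71455615 to 71567820) had 1276 counts in CBS cells, against 937 in empty-vector cells, which gives a log2 fold of 0.35 (0.22 to 0.47). BRF1 (chromosome 14, 105209286 to 105315589), which serves tRNA genes, had 572 counts in CBS cells, against 522 in empty-vector cells, which gives a log2 fold of 0.03 (-0.14 to 0.21), or 0.31 after removal of the trend on length and GC content. BRF2 (chromosome 8, 37843268 to 37849904), which serves genes with promoters upstream of the start, had 188 counts in CBS cells, against 163 in empty-vector cells and a log2 fold of 0.10 (-0.20 to 0.42). Both BRF intervals held a ratio of 1, and BRF1 made up 75.3% of the counts of the pair with CBS and 76.2% with the empty vector. In the authors' TPM the share of BRF1 was lower with CBS, 70.4%, against 77.2% with the empty vector. BRF2 was at 6.45 TPM in CBS cells, against 4.33 TPM in empty-vector cells. MAF1 (chromosome 8, 144104499 to 144107611), the repressor that shuts polymerase III off when nutrients are short, had 1852 counts in CBS cells, against 1819 in empty-vector cells. Its log2 fold was -0.07 (-0.17 to 0.02), and 0.15 after removal of that trend. Only for BDP1, of these 4 genes, did the interval exclude a ratio of 1.

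Set side by side, the 19 subunits of both enzymes had a median log2 fold of 0.53 and a summed level of 512.5 TPM in CBS cells, against 379 TPM in empty-vector cells. The other 17 genes, factors and MAF1, had a median of 0.21 and summed to 763 TPM in CBS cells, against 642 TPM in empty-vector cells. All 7 genes that were 1.5-fold higher were subunits: CD3EAP, POLR1B, POLR1E, POLR1A, POLR3K, POLR3G and POLR3B. This difference between subunits and factors was not tested.

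Other genes of the transcription apparatus were examined in lists from general knowledge. The 5 small subunits common to all 3 nuclear polymerases (POLR2E, POLR2F, POLR2H, POLR2K and POLR2L) had a median of 0.20, with 4 intervals above a ratio of 1 and POLR2L highest at 0.37 (0.30 to 0.45). The 7 subunits of RNA polymerase II alone had a median of 0.30, with 6 intervals above 1. POLR2D, a stalk subunit, was highest at 0.59 (0.45 to 0.74), and POLR2C, of the assembly platform, was at 0.41 (0.29 to 0.53). Higher subunit transcripts were thus also present for polymerase II, with 1 gene at 1.5-fold. TBP, used by all 3 enzymes, had 352 counts in CBS cells, against 319 in empty-vector cells, which gives a log2 fold of 0.04 (-0.18 to 0.27). The 8 genes of TBP, the SNAPc complex of small nuclear RNA promoters and its activators had a median of 0.02. Of these, SNAPC1 at 0.30 (0.10 to 0.50) had the interval above a ratio of 1 and SNAPC3 at -0.26 (-0.42 to -0.10) the interval below.

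**Figure D4:**
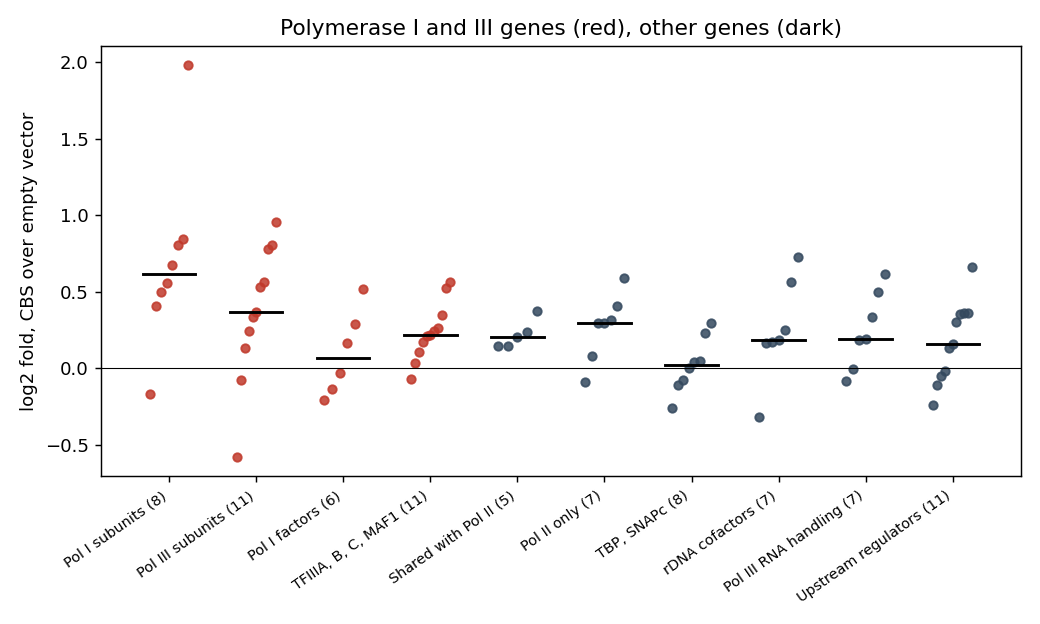
Log2 fold, CBS over empty vector (vertical axis), of each gene above the filter in 4 groups of polymerase I and III genes (red) and 6 lists of related genes (dark), with the number of genes in parentheses and the median as a black bar. The medians are 0.62 for polymerase I subunits, 0.37 for polymerase III subunits and 0.07 for polymerase I factors. Those of the 6 other lists lie between 0.02 and 0.30, a range that also holds the medians of both red groups of factors.

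Of 7 genes that act at ribosomal DNA, 5 had an interval above a ratio of 1 and 1 below, with a median of 0.19. The median of their mean counts was 4620.5, against 488 for all genes above the filter, and counting intervals narrow as counts rise. TOP1, a topoisomerase that relieves supercoils, was at 0.73 (0.67 to 0.79), and NOLC1, a nucleolar chaperone, was at 0.56 (0.50 to 0.62). BAZ2A, of the complex that silences ribosomal DNA, was at -0.31 (-0.39 to -0.24). Of 7 genes that handle polymerase III transcripts, 4 had an interval above 1, with a median of 0.19. ELAC2, which trims the ends of tRNA precursors, was at 0.62 (0.52 to 0.71), and SSB, the La protein that binds new polymerase III transcripts, at 0.50 (0.41 to 0.59). MEPCE, which caps 7SK RNA, was at 0.33 (0.23 to 0.44).

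Among 11 upstream regulators the median was 0.16, with 7 intervals above a ratio of 1 and 2 below. MTOR, the kinase that promotes the activity of both polymerases, had 1959 counts in CBS cells, against 1157 in empty-vector cells, which gives a log2 fold of 0.66 (0.56 to 0.77). RPS6KB1, a kinase it activates, was at 0.36 (0.20 to 0.53). MYC, a transcription factor known to activate genes of both machineries, had 4863 counts in CBS cells, against 5360 in empty-vector cells, which gives a log2 fold of -0.24 (-0.29 to -0.18).

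The products of the 2 enzymes could hardly be read in these libraries. Of 14 polymerase III RNAs found in the table, 8 had no rounded count in either library. RN7SL1, the RNA of the signal recognition particle, had 49 counts in CBS cells, against 51 in empty-vector cells, and its interval held a ratio of 1 (-0.75 to 0.44). RMRP had 4 counts in CBS cells, against 1 in empty-vector cells, and RPPH1 had 2 against 3. BCYRN1 had 1217 counts in CBS cells, against 1238 in empty-vector cells, but its row in the table spans 13458 bases, so these reads need not come from the short RNA. The 8 rows of RNA5-8S5 held equal estimates of 12.5 counts each with CBS and 6.88 each with the empty vector, and identical copies cannot be told apart. The activity of either polymerase was therefore not measured here.

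**Figure D5:**
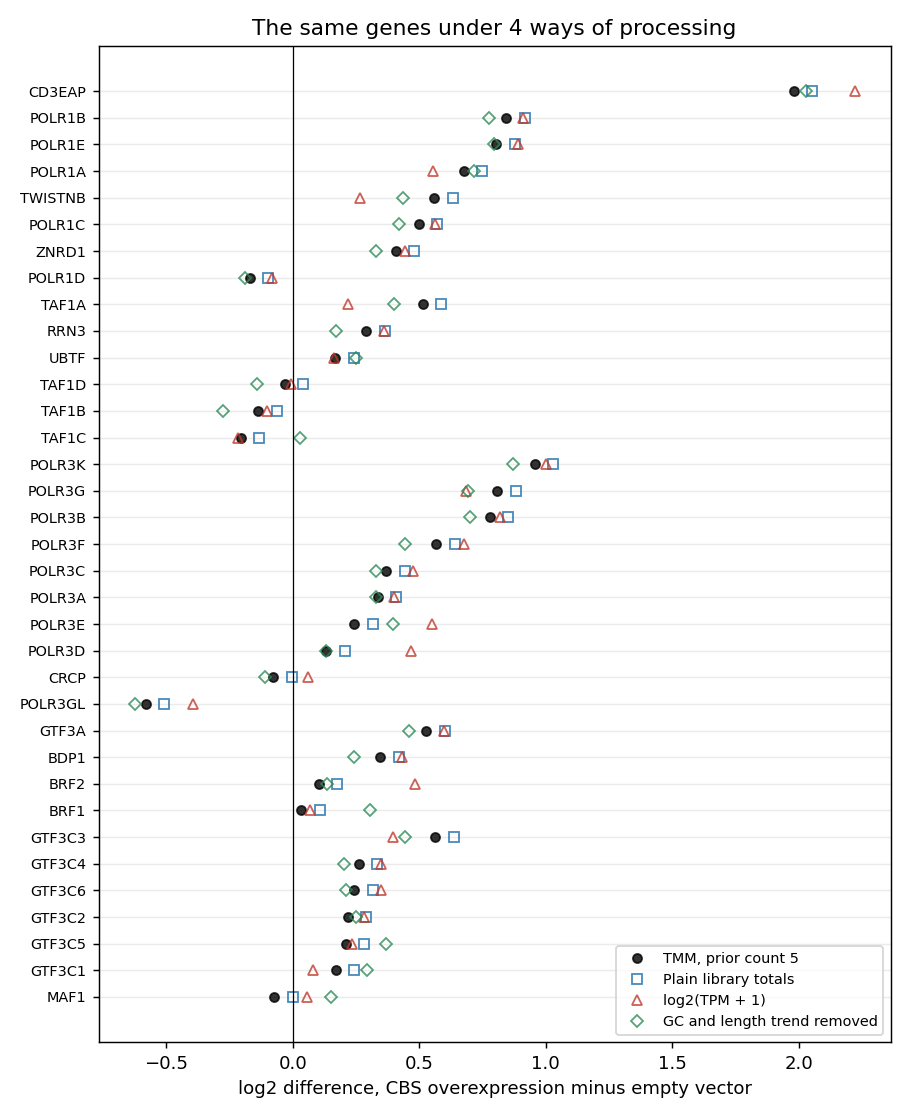
Log2 difference, CBS minus empty vector (horizontal axis), of the genes reported singly under 4 ways of processing: TMM scaling of counts, plain library totals, log2(TPM + 1), and TMM after removal of the trend on length and GC content. CD3EAP lies between 1.98 and 2.22 in these 4 and POLR3GL between -0.62 and -0.39.

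Opposite-strand overlap touched other genes too. Of the 36 genes, 15 overlap another gene above the filter, and 14 of these share exonic bases with it. POLR3K shares 8.10% with SNRNP25, which had 477 counts in CBS cells, against 352 in empty-vector cells. The 21 genes with no such overlap had a median log2 fold of 0.24, with 14 intervals above a ratio of 1 and 3 below. Over all genes above the filter, the interval lay above 1 for 31.6% and below 1 for 31.1%. Of the 21 genes, 4 (POLR1B, POLR1E, POLR1A and POLR3B) were at least 1.5-fold higher, against 7.02% of all genes.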

How the data were processed

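For every gene the authors deposited an expected count, which may hold a fraction of a read, and a TPM value, scaled for length and depth. The submitters' processing notes list Trimmomatic 0.39, STAR 2.6.1d, RSEM 1.3.2 and GRCh38. Strandedness, read layout and annotation release are not given in the sources used here. Expected counts were rounded to whole numbers. The filter on low counts asked for 10 counts in 1 library and a mean CPM of 1 or more. TMM factors came from edgeR 4.0.16 and, as an alternative, size factors from DESeq2 1.42.0, in R 4.3.3, with no model fitted. CPM use the TMM-scaled totals. Intervals are exact (Clopper-Pearson) for the share of 1 library in the 2 counts, turned into a ratio, without the prior count. Reads amplified by PCR are not independent molecules, so intervals may be too narrow. Depth limits the precision most for genes with few counts; the 36 genes had 136 to 2338 counts with CBS and 88 to 1959 with the empty vector.

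Groups came from the genotype in the labels. The genes and lists were chosen with earlier results of these data known. Genes named in full have an absolute log2 fold of at least 0.5 with an interval that excludes a ratio of 1, or are among POLR1A, POLR1B, UBTF, RRN3, POLR3A, POLR3B, MAF1, BRF1, BRF2, BDP1 and GTF3A; from each other list up to 3 genes of largest change were taken. POLR3C, POLR3D, POLR3E, ZNRD1 and the other genes outside that rule are given to account for the rest of the 36, and TBP, MYC, the polymerase III RNAs and some overlapping partners were named after their values were seen. A few genes of these lists enter the counts and medians and are not reported singly here. Strand, exons, GC content and length came from GENCODE 29, in which the start and end of 34 of the 36 genes equal those of the table. The GC content and length trend was removed with a lowess curve (statsmodels 0.14.6, span 0.3). The calculation was tested on simulated data. Alternatives were DESeq2 size factors, plain totals, TPM, prior counts of 1 and 20, no filter, thresholds of 1.5-fold and 4-fold, a filter of 100 counts, trend removal and leaving out overlapping genes. The software was Python 3.11.15 with scipy 1.17.1, pandas 2.3.3 and numpy 2.4.6.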

Additional observations from a re-analysis of the deposited data

How the results depend on the processing

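No paired analysis was possible because each group held 1 library, so there was also no replicate to leave out. The median of the 36 genes stayed above 0 under each alternative that gives one. With plain totals it was 0.39, against 0.07 for all genes above the filter. Dropping the filter or asking for 100 counts does not alter the fold of a single gene, so these settings could not move any of the 36. With DESeq2 size factors, plain totals or prior counts of 1 or 20, each of the 36 genes stayed inside its own counting interval. On log2(TPM + 1), 10 of the 36 genes left it. With the GC and length trend removed, 28 of the 36 genes stayed inside it. Those that left it then included MAF1 and TAF1C, which changed sign to 0.15 and 0.029. The other sign changes, in genes whose interval held a ratio of 1, were TAF1D (0.043) and MAF1 (0.0012) with plain totals and CRCP (0.062) and MAF1 (0.057) in TPM. The count of 2-fold higher genes among the 36, 1 as reported, was 2 with plain totals, 7 at a threshold of 1.5, 0 at a threshold of 4 and 0 without overlapping genes, since CD3EAP is one of them. Calls use the log2 fold with a prior count of 5, by which CD3EAP at 1.98 lay just under 4-fold; it lay above it with plain totals (2.05), with the trend removed (2.03) and in TPM (2.22). In TPM the medians were 0.55 for polymerase III subunits, 0.43 for TFIIIB, 0.35 for subunits shared with polymerase II and 0.46 for polymerase II subunits. For the ribosomal DNA cofactors the median was 0.31 in TPM and 0.069 with the trend removed. The median of all genes above the filter was itself higher in TPM, at 0.09, against 0.00 with TMM. The cause of these differences was not tested. Over all genes, 188 higher and 703 lower as reported, the higher count was 121 at a prior count of 20, 431 with no filter, 115 with 100 counts, 934 at a threshold of 1.5 and 23 at 4. The lower count was 377 in TPM, called on the fold alone, 1281 with no filter, 438 with 100 counts, 1712 at 1.5 and 105 at 4.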

Other observations

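For several of the 36 genes the deposited counts and TPM gave different sizes of difference, because the number of counts per unit of TPM was not the same in both libraries. The quotient of that number, CBS over empty vector, was 0.776 for BRF2, 0.786 for CD3EAP and 0.832 for POLR3D, and it was 1.301 for TWISTNB and 1.3001 for TAF1A. For BRF2 the TPM were 6.45 in CBS cells, against 4.33 in empty-vector cells, a ratio of 1.49, where the scaled counts gave 1.08. For CD3EAP the ratio of TPM was 5.47 and that of scaled counts 4.01. Estimates per isoform were not analysed here.

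Some genes on the opposite strand of a polymerase gene lay on the same side of a ratio of 1 as that gene; they were picked after their values were seen. MBLAC2, which overlaps POLR3G, was at 0.99 (0.76 to 1.26), DDX31, which overlaps GTF3C4, at 0.76 (0.56 to 0.98), and DZANK1, which overlaps POLR3F, at 0.59 (0.13 to 1.15). XPO5, which overlaps POLR1C, was at 0.45 (0.36 to 0.55), whereas YIPF3, which also overlaps POLR1C, was at -0.35 (-0.44 to -0.25). The part of shared reads in these values was not tested.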
